A study of Medicago sativa with 15 samples.

Results

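Roots of alfalfa seedlings (Medicago sativa, a forage legume with a tetraploid, outcrossing genome) were compared after 12 h and after 4 h of alkaline stress, and each change was set beside the level in roots under normal conditions. The members are the 3 libraries labelled 12 h and the 3 labelled 4 h, chosen by their labels, 6 of the 15 libraries of the series. Both groups were kept in NaHCO3 at 50 mmol/L. The labels of the 3 controls disagree: their treatment entry names alkaline stress, while their titles say normal conditions and their time entry is CK. They were taken as control by title and time entry, and every position relative to control below rests on that. They carry no hours and no NaHCO3 dose in their labels, so duration of stress and time of sampling cannot be told apart. The other 6 libraries are of the same stress at 8 h and 24 h and serve here only to place the levels. No cultivar, plant age or pooling is given in the labels, and the labels do not tie a replicate to a plant or culture of its own, so the spread behind every p-value may be technical.

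Bicarbonate buffers the medium around a root at a high pH. There iron and phosphate become less soluble, and the proton gradient that drives much nutrient uptake across the root plasma membrane is weakened, while the sodium that comes with it adds salt stress. Plant responses to abiotic stress often include changes that pass within hours, and a later sampling time can separate genes that return towards the unstressed level from genes that first move later. A gene that is lower in whole roots may be so through fewer cells that express it or through less of its RNA in each cell, and these cannot be told apart here.

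The 12 h libraries held 6863315 to 13196868 counts, the 4 h libraries 7160487 to 14539337 and the controls 11266060 to 14262860. Replicate 1 at 12 h lay between the other 2 libraries of its group at 79.3% of well-counted genes (at least 300 counts in the group), and replicate 2 at 4 h at 79.0%, against 9.81% to 10.9% for the other 4 libraries of those groups and 23.1% to 38.8% for the controls. These 2 libraries were also the shallowest of their groups, and they are called intermediate below. Whether they were derived from the other 2 libraries was not tested and the labels do not say; if so, each time has 2 independent libraries and not the 3 counted in n, SD and the 15-library test. Results are given with them, and without them on 13 libraries, or on the 11 libraries left when 8 h replicate 3 and 24 h replicate 1, which lie between the others in the same way, are removed too. Between the remaining 2 libraries the correlation of log2(CPM + 1) was 0.528 at 12 h and 0.557 at 4 h across 28014 genes, against 0.801 to 0.877 between controls; CPM is the count scaled to a common library total with TMM factors. The 4 pairs of a 12 h with a 4 h library had correlations of 0.463 to 0.603, a range that holds the values within both times. The gene IDs have no names in the files, and 0 of 164632 were found in the reference table, so genes are given by ID, no role is stated for any of them, and the root identity of the tissue could not be checked on markers.

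More genes were detected in the roots at 12 h than at 4 h. Thinned to an equal depth of 6863315 counts, the 12 h replicates 1, 2 and 3 had 78563, 73583 and 71049 genes with a count, and the 4 h replicates had 61650, 68784 and 60924. Control replicates had 76547, 75206 and 71580. The 12 h and 4 h libraries did not overlap, whereas the 12 h libraries overlapped with the controls. The mean was 74399 ± 3823 at 12 h and 63786 ± 4344 at 4 h (SD, n = 3 each), a difference of 10613 genes (exact two-sided permutation test, p = 0.1, the smallest that 3 against 3 libraries allow). The controls had 74444 ± 2570 (SD, n = 3), and the exact permutation test of 12 h against control gave p = 1.0. In each stressed group the intermediate library had the highest number. Without it the 12 h libraries stood at 71049 and 73583 and the 4 h libraries at 60924 and 61650, still apart. Among the 68605 genes tested below, 1453 had no count in any 12 h library (2.12%), 5223 had none in any 4 h library (7.61%) and 886 had none in any control (1.29%).

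With all 15 libraries, 8557 of 68605 genes (12.5%) changed between 12 h and 4 h by edgeR's adjusted p, a threshold of 0.05 with no limit on fold. Of these 5664 were higher at 12 h (8.26% of genes tested) and 2893 were lower (4.22%), so higher genes made up 66.2% of the calls. These counts and the classes drawn from them depend on the intermediate libraries: edgeR called 1319 higher and 879 lower genes without 4 h replicate 2 alone, 2399 and 597 without 12 h replicate 1 alone, 109 genes in all on 13 libraries and 0 on 11. In those 11 libraries DESeq2 passed 2877 genes and limma-voom 0, and 8301 genes were below 0.05 by edgeR's p before adjustment. The median log2 fold change, 12 h over 4 h, was 4.76 for higher genes and -2.99 for lower genes. Over all genes tested, which move in both directions, the signed median was 0.16. The test favours large folds, so the sizes in the called genes describe the choice. Where a group had no count the fitted fold depends on the prior count, and with such genes set to a floor of 3 counts over the group's 3 libraries the medians were 3.76 and -2.98. At this floor 5125 higher genes (90.5%) and 2333 lower genes (80.6%) passed 4-fold, and 2422 (42.8%) and 809 (28.0%) passed 16-fold. In the fit without the floor, 90.8% of the higher and 80.6% of the lower genes passed 4-fold, against 29.6% of all genes tested in either direction. There 59.1% and 30.7% passed 16-fold, against 11.3% of all genes tested. No called gene changed by less than 2-fold in the fit.

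The higher and the lower genes differed in level and length. Higher genes had a median CPM of 3.02 over the 9 libraries of 12 h, 4 h and control, and lower genes 8.91, against 3.44 for all genes tested. Of the 17152 genes with the lowest mean CPM (up to 1.24), 8.49% were called higher and 1.42% lower. Above a mean CPM of 10.5, where 17151 genes lie, the shares were 7.57% and 7.69%. Between these levels they were 9.0% and 2.98% up to a CPM of 3.44, and 7.97% and 4.78% above it, so higher calls outnumbered lower calls at all but the highest levels. The median coding length, which is the gene length that joins the deposited counts and FPKM, was 966 nt for higher genes, 1353 nt for lower genes and 1164 nt for genes not called. Neither level nor length was tested as a factor in the calls.

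Per library, the higher genes were scarce in 4 h roots and common in all others. Their median was 4.58, 3.96 and 4.9 CPM in 12 h replicates 1, 2 and 3, against 0.0775, 0.133 and 0.0728 CPM in the 4 h replicates. Controls had 3.04, 2.88 and 2.93 CPM, below all 12 h libraries. Of the 5664 genes, 97.5% to 99.9% had a count in a 12 h library, 52.5% to 53.6% in a 4 h library and 92.5% to 95.7% in a control. The 2893 lower genes had medians of 1.75, 1.98 and 1.78 CPM in the 12 h libraries, against 13.7, 15.6 and 16.2 CPM in the 4 h libraries. Their controls, at 5.32, 5.54 and 5.15 CPM, stood between both times. As a share of all counts, the higher genes took 13%, 10.4% and 15% of the 12 h libraries, against 2.52%, 2.31% and 2.07% of the 4 h libraries and 6.76% to 7.51% of the controls. The lower genes took 3.80%, 4.45% and 3.46% of the 12 h libraries, against 15.5%, 16.6% and 18% of the 4 h libraries and 7.86% to 8.10% of the controls. These genes were chosen for the difference between 12 h and 4 h, so the levels at those times describe the choice.

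**Figure D1:**
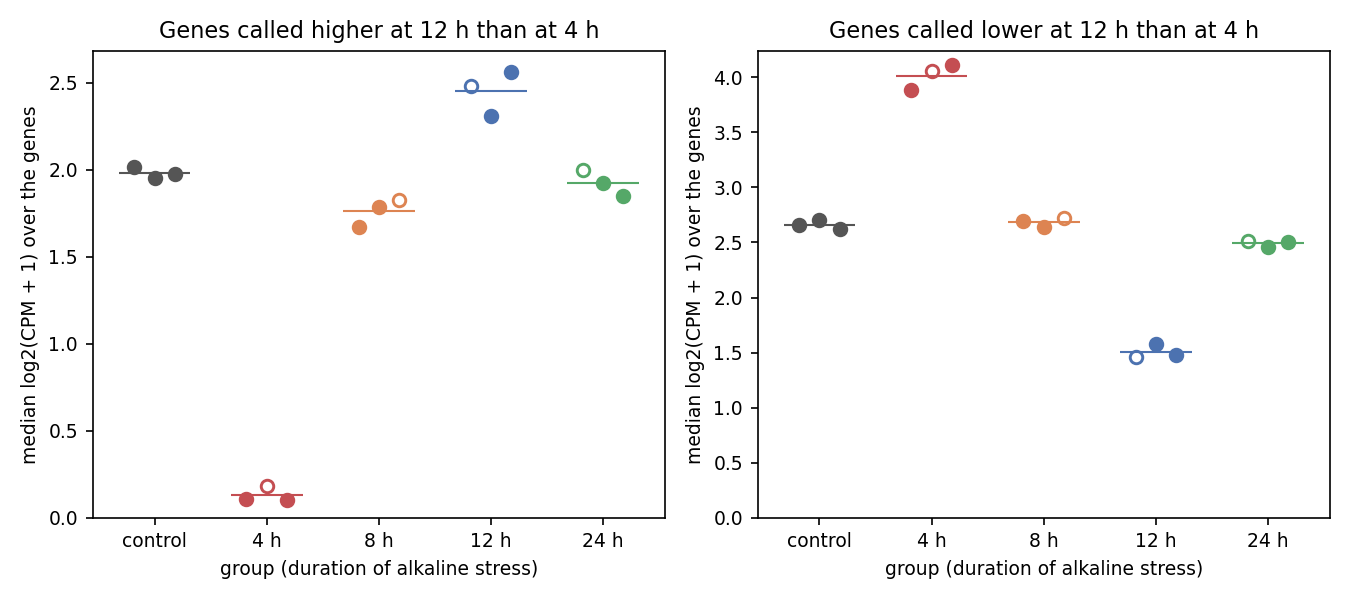
Median log2(CPM + 1) over the 5664 genes called higher (left) and the 2893 called lower (right) at 12 h than at 4 h, 1 point per library, with control first and then the duration of stress; open points are the intermediate libraries and lines are group means. The higher genes are near 0 in all 4 h libraries and stand above the controls at 12 h, while the lower genes peak at 4 h and lie below the controls at 12 h.

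To separate a return to the control level from a new change, each called gene was placed by its fitted log2 fold changes at 4 h and at 12 h, both over control, with 2-fold as the limit for near control. Of the 8557 genes, 3536 (41.3%) were at least 2-fold from control at 4 h and within 2-fold of it at 12 h. Another 2437 (28.5%) were at least 2-fold away at both times but on opposite sides. They are said below to have passed control, which is a placement by fitted fold and needs no call against control. Newly changed genes, near control at 4 h and at least 2-fold away at 12 h, numbered 1367 (16%). A further 839 (9.80%) had moved part way, 244 (2.85%) were further from control at 12 h on the same side, and 134 (1.57%) were near control at both times. The placement shares the 4 h and 12 h libraries with the call. By that choice a called gene tends to lie far from control at 4 h, at 12 h or at both, and no test was made. Over all 68605 genes tested, 24.4% were back within 2-fold, 6.93% past control, 15.9% newly changed and 24.8% near control at both times. On the 11 libraries the placement was the same for 94.6% of the higher and 95.3% of the lower genes that were back within 2-fold, and for 94.9% of the higher and 93.4% of the lower newly changed genes. With groups without counts set to the floor of 3 counts, 97.6% of the higher and 98.7% of the lower genes kept their class. Newly changed genes among the higher ones then numbered 687 against 552 in the fit, and those past control 1496 against 1625. Among the lower genes newly changed stayed at 815, and past control held 780 against 812.

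**Figure D2:**
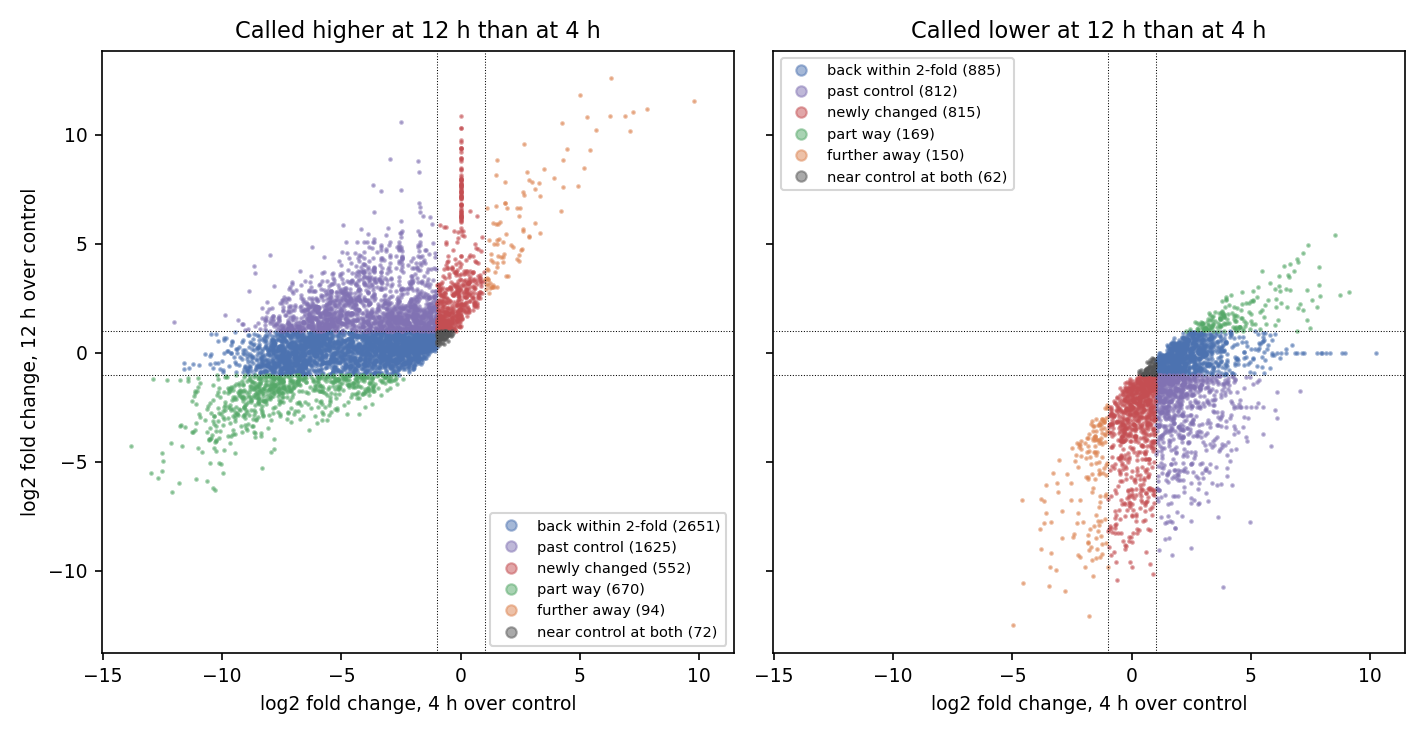
Each point is a gene called higher (left) or lower (right) at 12 h than at 4 h, placed by its log2 fold change at 4 h over control (x) and at 12 h over control (y), with dotted lines at 2-fold and the number of genes per class in the legend. Most higher genes lie left of the lines, below control at 4 h, and 2651 of them fall in the band around control at 12 h; the column of points at 0 on the x axis holds genes without counts at both 4 h and control.

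The placement was then taken for each direction. Among the 5664 higher genes, 2651 (46.8%) were back within 2-fold of control at 12 h, 1625 (28.7%) had passed it, 670 (11.8%) were part way and 552 (9.75%) were newly raised. Among the 2893 lower genes, 885 (30.6%) were back within 2-fold, 812 (28.1%) had passed control, 169 (5.84%) were part way and 815 (28.2%) were newly lowered. Read against all genes tested with the same direction of fold, back within 2-fold held 27.2% of those higher at 12 h and 21.6% of those lower, and newly changed held 14.2% and 18.3%. Newly lowered genes were thus more frequent among the calls than among all lower genes, and newly raised genes less frequent among the calls than among all higher genes, as shares without a test.

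**Figure D3:**
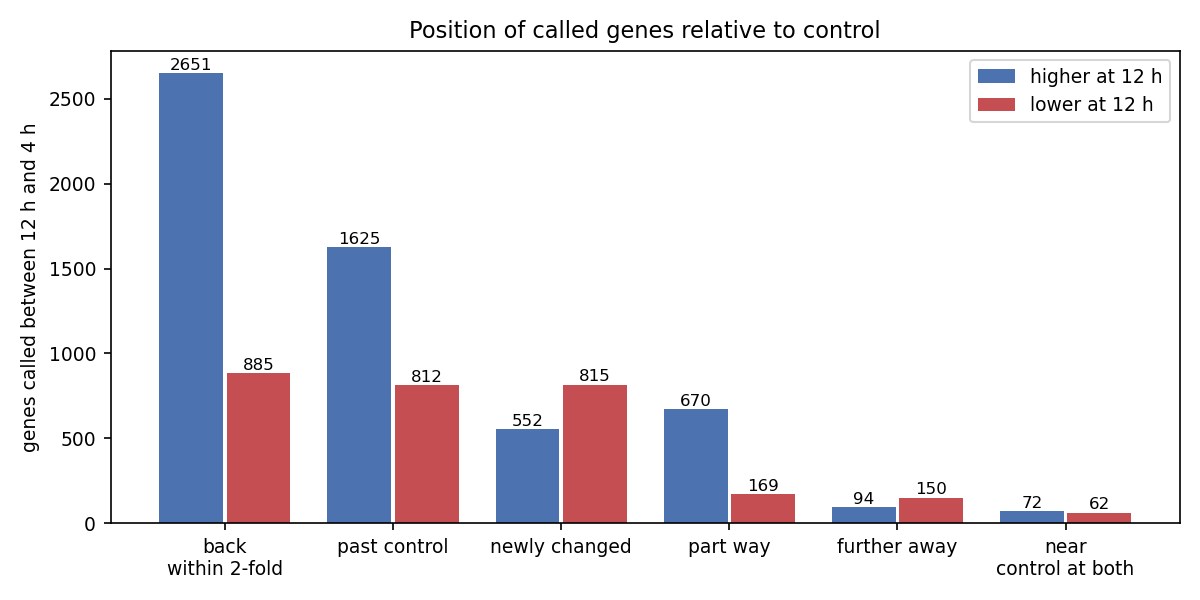
Number of genes called higher (blue) and lower (red) at 12 h than at 4 h, by position relative to control. With 15 libraries back within 2-fold is the fullest class in both directions, with 2651 and 885 genes, and among newly changed genes the lower ones (815) outnumber the higher ones (552); on 13 libraries (8 against 1) and by DESeq2 on 11 (382 against 204), past control held more lower genes than back within 2-fold.

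The 2651 higher genes that were back within 2-fold were expressed in control roots and low at 4 h. Their median level was 4.91 CPM at 12 h, 0.207 CPM at 4 h and 4.40 CPM in the controls. They took 3.94%, 3.61% and 4.02% of the counts in the 12 h libraries, 0.772%, 0.705% and 0.594% in the 4 h libraries and 3.33% to 3.88% in the controls. The 12 h and control libraries overlapped in this share. Of them 2329 (87.9%) were also called at 4 h against control. That comparison calls 19.0% of all genes, and 28.3% of all genes tested that fall in this class. The call reuses the 4 h and control libraries that set the class, so a high share follows from the choice. A level within 2-fold of control at 12 h does not show that a gene equals its control. At the times not used to choose them, 53.1% were within 2-fold of control at 8 h and 56.5% at 24 h. The shares were 44.5% and 46.1% of all genes tested, and 49.6% and 53.0% of all genes tested in this class. The controls took part in the choice.

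The 885 lower genes that were back within 2-fold stood above control at 4 h. Their median level was 5.54 CPM at 12 h, 29.3 CPM at 4 h and 5.68 CPM in the controls. In counts they took 1.71%, 2.05% and 1.47% of the 12 h libraries, 6.48%, 7.36% and 8.27% of the 4 h libraries and 1.70% to 1.79% of the controls. At 4 h 705 of them (79.7%) were called against control, which again follows from the choice. At 8 h 45.1% and at 24 h 54.8% were within 2-fold of control. The shares were 44.5% and 46.1% of all genes, and 49.6% and 53.0% of all genes tested in this class.

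Newly changed genes stood at about the control level at 4 h. The 552 newly raised genes had a median of 19.4 CPM at 12 h, 3.42 CPM at 4 h and 4.09 CPM in the controls, and 284 of them (51.4%) were called higher at 12 h against control, as 2.92% of all genes were. Their share of counts was 3.43%, 2.28% and 4.36% in the 12 h libraries, 0.599% to 0.667% in the 4 h libraries and 0.714% to 0.753% in the controls. The 815 newly lowered genes had a median of 1.87 CPM at 12 h, 14.2 CPM at 4 h and 10.9 CPM in the controls. Of them 478 (58.7%) were called lower at 12 h against control, as 4.36% of all genes were. For newly raised and newly lowered genes alike, this call reuses the 12 h and control libraries that set the class. Its high shares follow from the choice. At other times the newly raised genes lay above control in 85.7% of cases at 8 h and 83.0% at 24 h, and the newly lowered genes below it in 79.0% and 79.9%. Over all genes tested 47.4% and 47.9% lay above control at 8 h and 24 h, and 52.4% and 51.9% below it. Neither time took part in the choice of these genes, but the controls did.

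Genes that had passed control were taken next. The 1625 higher ones had a median of 4.33 CPM at 12 h, 0.0258 CPM at 4 h and 1.08 CPM in the controls. Of them 82 (5.05%) were called at 12 h against control, a comparison that calls 7.29% of all genes in either direction. By the class these calls can only be higher than control, as 2.92% of all genes were called. The 812 lower ones had a median of 0.402 CPM at 12 h, 8.97 CPM at 4 h and 2.09 CPM in the controls. Of them 84 (10.3%) were called at 12 h, by the class only lower than control, as 4.36% of all genes were. The calls of both directions share the 12 h and control libraries with the class, so shares above those of all genes follow from the choice. At 8 h 63.9% of the higher ones lay above control and 52.1% of the lower ones below it, against 47.4% and 52.4% of all genes. At 24 h 66.7% of the higher ones lay above control and 55.2% of the lower ones below it, against 47.9% and 51.9% of all genes. The lower ones were thus near the share of all genes at 8 h.

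Many of the changes were between silence and expression. Among the higher genes 2084 (36.8%) had no count in any 4 h library, with a median of 52 counts over the 12 h libraries, a level at least 18-fold higher in the median gene and at least 1490-fold in the most extreme one. Of these 2084 genes, 1883 had counts in both 12 h libraries that are not intermediate, 2009 (96.4%) had a count in the controls and 1561 had one in every control. The remaining 75 had no count at 4 h or in the controls. Of all genes tested, 1.29% had no count in any control, so a count in the controls does not mark these genes out. Among the lower genes 270 (9.33%) had no count in any 12 h library, of which 255 (94.4%) had a count in the controls and 15 had none. Their median was 68 counts over the 4 h libraries, at least 21.8-fold above 12 h. Most had a count at the other times, 1943 and 1932 of the 2084 at 8 h and 24 h, and 226 and 220 of the 270. The shares of all genes with such a count were not taken. A gene silent at 4 h or at 12 h can pass the filter only through other libraries, which favours counts there.

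Seen from 4 h, genes called lower than control were followed to 12 h. There were 8591 of them (12.5% of genes tested), and 3306 (38.5%) were within 2-fold of control at 12 h, against 49.2% of all genes, while 1655 (19.3%) were still called lower, against 4.36% of all genes. Of the 8591, 3586 (41.7%) were called higher at 12 h than at 4 h, against 8.26% of all genes, and 52 were called lower still. Of the 4414 genes called higher than control at 4 h (6.43%), 1439 (32.6%) were within 2-fold at 12 h, again against 49.2% of all genes, and 1076 (24.4%) were still called higher than control, against 2.92% of all genes. Of the 4414, 1025 (23.2%) were called lower at 12 h than at 4 h, against 4.22% of all genes, and 33 higher still. These comparisons share the 4 h or the control libraries, so the counts are a description from which nothing is read.

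The levels at 8 h and 24 h were set beside those at 4 h and 12 h. Called genes were chosen for a wide gap between 4 h and 12 h, so the level at another time falls inside that gap more readily than for other genes, and these shares are a description. For the higher genes the 8 h level lay between them in 70.1% and was nearer to 12 h in 78.4%. For the lower genes it lay between them in 77.7% and was nearer to 12 h in 48.6%. At 24 h the level was nearer to 12 h than to 4 h for 80.2% of the higher and 55.4% of the lower genes. Over all genes tested the 8 h level lay between 4 h and 12 h in 37.6%. It was nearer to 12 h in 56.1% of all genes at 8 h, as was the 24 h level in 58.1%. The lower genes were below these shares of nearer genes at both times. Median levels of the lower genes in single libraries were 5.22 to 5.59 CPM at 8 h and 4.49 to 4.71 CPM at 24 h, between the 12 h and the 4 h values, which the choice had set apart.

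A pair of IDs in each direction shows these patterns library by library. They were the genes with the widest gap between the 3 libraries of one time and the 3 of the other, within back within 2-fold and newly changed and with a mean of at least 5 CPM over the 9 libraries, so their gap and test follow from the choice. MS.gene08201 (coding length 180 nt) was the higher gene back within 2-fold. It had 96.5, 101 and 86.1 CPM in 12 h replicates 1, 2 and 3, against 1.86, 0.801 and 0.510 CPM in the 4 h replicates, and 111, 49.8 and 73.2 CPM in the controls. The 4 h libraries stood far below both other groups, and the 12 h libraries lay within the range of the controls. Its log2 fold change, 12 h over 4 h, was 6.45 ± 0.90 (SE, edgeR adjusted p = 0.0015). Over control it was -6.18 ± 0.89 at 4 h and 0.28 ± 0.70 at 12 h. At 8 h it had 34.5, 36.3 and 39.1 CPM, below every control, and at 24 h 59.2, 102 and 4.74 CPM, so 24 h replicate 3 stood apart from its group.

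MS.gene54620 (759 nt) was the newly raised gene. It had 189, 165 and 272 CPM in the 12 h libraries, against 9.30, 6.94 and 6.92 CPM in the 4 h libraries, and 15.1, 6.90 and 12.9 CPM in the controls. The 4 h libraries overlapped with the controls and the 12 h libraries stood above both. Its log2 fold change was 4.75 ± 0.43 over 4 h (edgeR adjusted p = 0.000136) and 4.16 ± 0.42 over control. The 8 h libraries had 67.6, 75.4 and 69.9 CPM and the 24 h libraries 40.4, 47.2 and 37.3 CPM, so the level was highest at 12 h and above all controls from 8 h on.

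MS.gene59001 (1077 nt) was the lower gene back within 2-fold. It had 3.10, 2.90 and 3.03 CPM in the 12 h libraries, against 81.6, 54.0 and 71.6 CPM in the 4 h libraries, and 0.553, 7.04 and 2.66 CPM in the controls. The 4 h libraries stood alone, and the 12 h values lay inside the spread of the controls. Its log2 fold change was -4.52 ± 0.81 over 4 h (edgeR adjusted p = 0.00428) and -0.19 ± 0.72 over control at 12 h. At 8 h it had 25.1, 25.6 and 19.9 CPM, and at 24 h 8.41, 3.73 and 24.5 CPM, with 24 h replicate 3 at the level of the 8 h libraries.

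MS.gene72976 (441 nt) was the newly lowered gene. It had 5.65, 5.80 and 1.96 CPM in the 12 h libraries, against 93.5, 111 and 135 CPM in the 4 h libraries, and 75.4, 166 and 154 CPM in the controls. The 4 h values lay within the range of the controls and the 12 h values far below both. Its log2 fold change was -4.66 ± 0.68 over 4 h (edgeR adjusted p = 0.00175) and -4.88 ± 0.68 over control. The 8 h libraries had 61.6, 19.9 and 39.0 CPM and the 24 h libraries 67.0, 116 and 22.7 CPM, so 12 h was the lowest time. Without the intermediate libraries the means at 12 h and 4 h were 93.3 and 1.19 CPM for MS.gene08201, 218 and 8.11 CPM for MS.gene54620, 2.96 and 76.6 CPM for MS.gene59001 and 3.88 and 114 CPM for MS.gene72976, but edgeR on the 11 libraries passed none of the 4 (adjusted p 0.205 to 0.265), while DESeq2 on the same libraries passed all 4 (highest adjusted p 0.00167). On the 13 libraries MS.gene54620 passed (edgeR adjusted p = 0.021), and the others did not (0.0501, 0.076 and 0.0501).

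**Figure D4:**
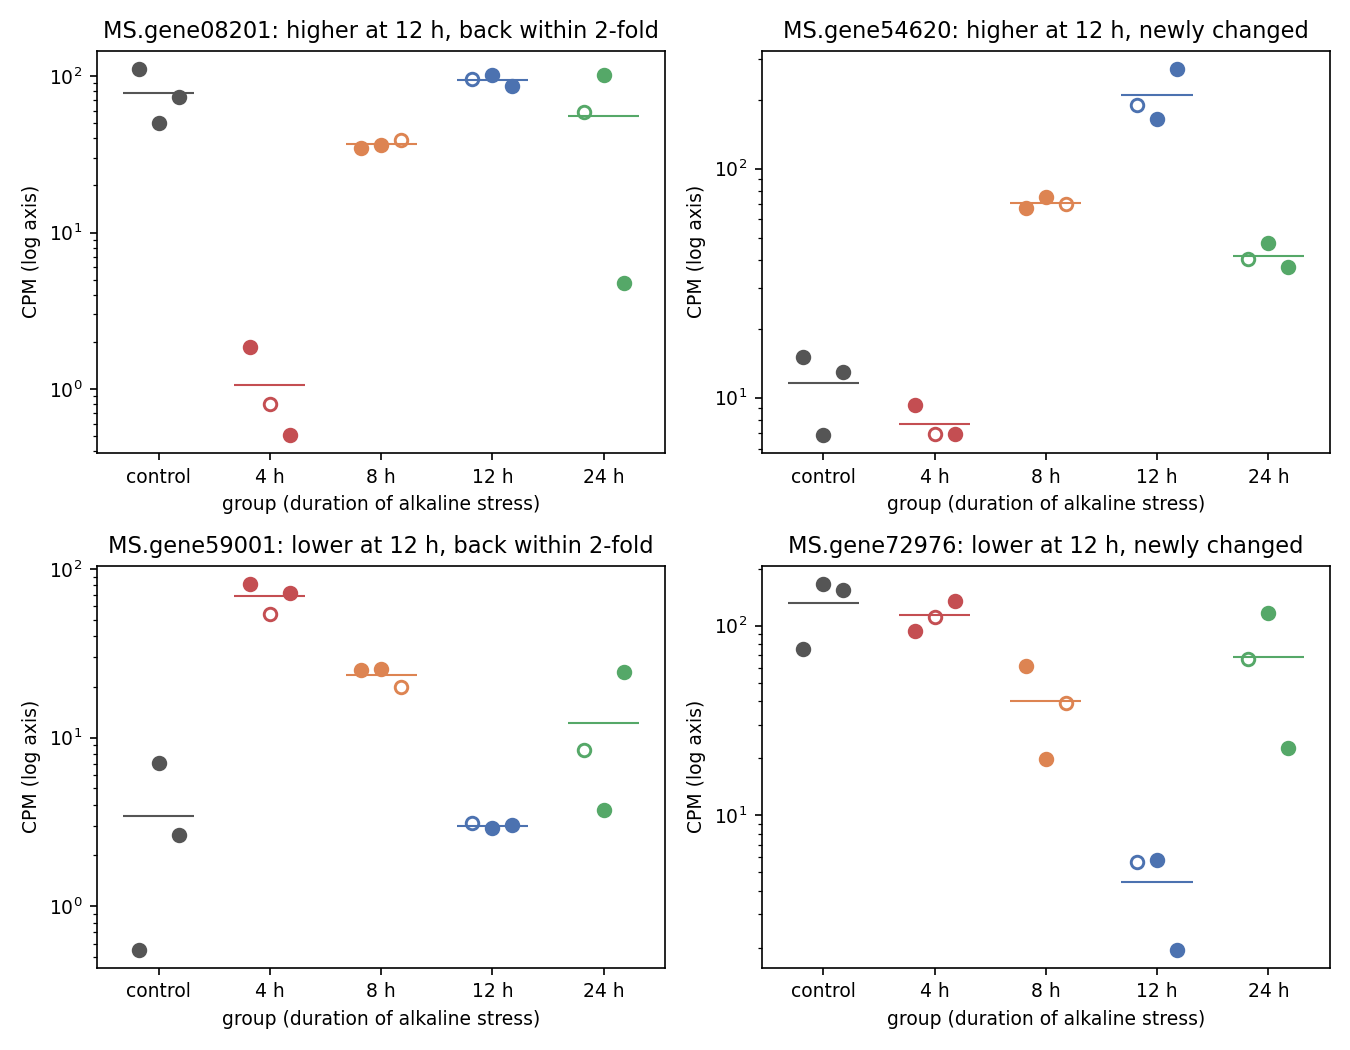
Level of the 4 IDs in each library, in CPM on a log axis, by group with control first and then the duration of stress; open points are the intermediate libraries and lines are group means. For the genes on the left the 12 h libraries lie at the level of the controls, and for those on the right the 4 h libraries do.

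The number of calls fell most when the intermediate libraries were left out. Without 12 h replicate 1 alone edgeR called 2399 genes higher and 597 lower, and without 4 h replicate 2 alone 1319 and 879. Leaving out 12 h replicate 2 gave 4427 and 1571, and 12 h replicate 3 gave 3977 and 1680. Without 4 h replicate 1 the counts were 3632 and 2308, and without 4 h replicate 3 they were 3505 and 1993. On the 13 libraries without both intermediate ones, 109 of 72873 genes were called (0.15%), 94 higher (0.129%) and 15 lower (0.0206%), and each of the 109 also belonged to the 8557 with an unchanged direction (both fits use these 13 libraries). On the 11 libraries edgeR called 0 of 71665 genes, with 8301 at an unadjusted p below 0.05, and limma-voom called 0, with 9180; DESeq2 called 2877 (4.01%), 1982 higher (2.77%) and 895 lower (1.25%). Of those DESeq2 calls, 1926 of the higher (97.2% of them, and 34.0% of the 5664) and 864 of the lower (96.5%, and 29.9% of the 2893) were called in the same direction with 15 libraries. With 15 libraries 8.26% of all genes tested were called higher and 4.22% lower. Both fits use these 11 libraries, so the overlap is no independent check. Genes back within 2-fold fell to 1270, 2190 and 2347 when 12 h replicates 1, 2 and 3 were left out in turn, and to 889 and 2234 for 4 h replicates 2 and 3. Newly changed genes fell to 334 when 12 h replicate 1 was left out and to 821 for 12 h replicate 3, and to 779, 316 and 841 for the 4 h replicates.

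**Figure D5:**
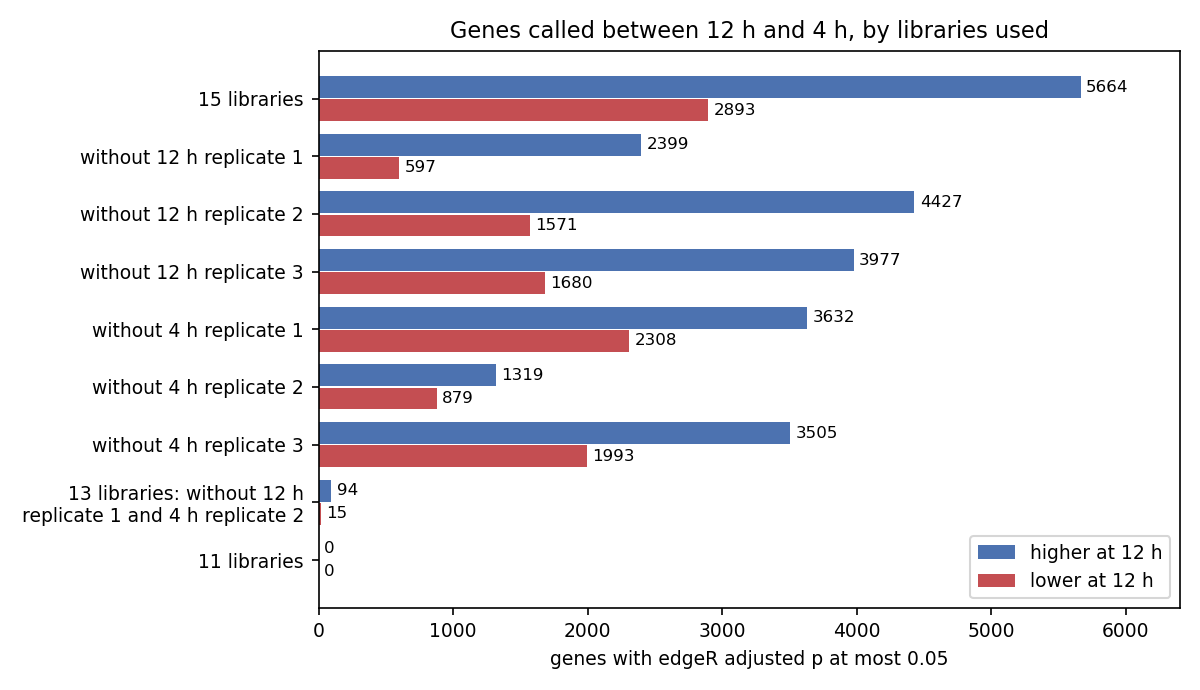
Genes called higher (blue) and lower (red) at 12 h than at 4 h by edgeR with all 15 libraries, with each 12 h or 4 h library left out, and without the intermediate libraries. The counts drop to 94 and 15 on 13 libraries and to 0 on 11.

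The 109 genes called on 13 libraries were described in the same way. Of the 94 higher ones, 56 had no count in the 4 h pair, and of the 15 lower ones 0. Among the 68605 genes tested with 15 libraries, 7.61% had no count in any 4 h library, and the share for the pair was not taken. In the 13-library fit 88 of the 94 were called at 4 h against control, where 3.99% of all genes were. At 12 h against control 3 were called, where 0.81% of all genes were. Both comparisons share libraries with the call, so these numbers are a description. By position, 41 were back within 2-fold of control at 12 h, 40 had passed it, 12 were part way and 1 was newly raised. Of the 15 lower genes 8 had passed control, 4 were newly lowered, 2 were further away and 1 was back within 2-fold, and 10 were called at 12 h against control. DESeq2 on the 11 libraries placed 896 of its 1982 higher genes (45.2%) back within 2-fold, 757 (38.2%) past control and 91 (4.59%) as newly raised. Of its 895 lower genes it placed 382 (42.7%) past control, 227 (25.4%) as newly lowered and 204 (22.8%) back within 2-fold, so for lower genes past control was the fullest class there.

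The called genes were then described on the libraries that are not intermediate. These libraries took part in the call, and removing a library that lies between the other 2 can hardly turn a direction or make the times overlap, so the values are no independent check. Of the 5664 higher genes 5650 were tested on the 11 libraries and all 5650 were higher at 12 h there, with 4854 at an unadjusted p below 0.05. Of the 2893 lower genes 2885 were tested and all 2885 were lower, 2215 of them at such a p. Among all 71665 genes tested on the 11 libraries, 8301 were at such a p in either direction. With all 6 libraries, the 3 of each time did not overlap for 5202 of the higher genes (91.8%) and 2592 of the lower genes (89.6%), against 19.3% and 12.7% of all genes tested in those directions. They were at least 2-fold apart on CPM + 1 for 2410 (42.5%) and 1398 (48.3%), against 4.14% and 2.65% of all genes. Without the intermediate libraries, the 2 of each time did not overlap for 5218 of the higher genes (92.1%) and 2600 of the lower genes (89.9%), against 21.3% and 14.3% of all genes. The gap reached 2-fold for 2594 (45.8%) and 1501 (51.9%), against 4.85% and 3.13% of all genes.

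The 2 libraries of a time that are not intermediate differed from each other at many genes. Over all genes tested the median gap on log2(CPM + 1) was 0.81 between the 12 h pair and 0.87 between the 4 h pair, against 0.68 between controls and a median difference of 0.67 between the means of the pairs at 12 h and 4 h. The difference between the times was larger than the gap within both pairs at 23.4% of all genes, at 70.5% of the higher and at 72.7% of the lower genes. For the higher genes the gap was 0.97 within the 12 h pair and 0.17 within the 4 h pair, where most were near 0. For the lower genes it was 0.43 within the 12 h pair and 1.10 within the 4 h pair.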

How the data were processed

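RNA was sequenced from alfalfa roots in 15 libraries, 5 groups of 3 by sample title. Per the labels' protocols, total RNA was column-extracted and libraries made with a SMARTer mRNA kit. The authors deposited raw read counts per gene (164632 IDs, totals 6863315 to 15180708) and FPKM for the same IDs; 108456 had a count. Counts and FPKM gave 1 length per gene, of which 95.96% were multiples of 3 (median 1083 nt), hence coding length. The sources used here name no aligner, counting tool, strand setting or genome build; reads shared by alleles or paralogs make the split among near-identical copies uncertain for every gene.

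The test was edgeR 4.0.16 (R 4.3.3): filterByExpr, TMM, 1 quasi-likelihood model of 5 groups over 15 libraries (two-sided), Benjamini-Hochberg adjustment over 68605 genes. The standard error is the log2 fold change divided by the square root of F. Alternatives used limma 3.58.1 and DESeq2 1.42.0; limma on FPKM used log2(FPKM + 1) or log2(FPKM + 0.1). The edgeR script was tested on simulated data. Named IDs are, for each direction and for genes back within 2-fold or newly changed, the called gene with mean CPM of at least 5 over 9 libraries and the largest gap on log2(CPM + 1) between the 3 libraries of each time. Comparisons, classes and rule were chosen with earlier results of these data known; DESeq2 and limma-voom on 11 libraries, and the floor for groups without counts, were added after seeing the data. Detected genes at equal depth are expected numbers when each library is thinned to 6863315 counts; counts without molecular identifiers are not independent molecules, so floors cover counting error only. No gene list was tested, since no ID has a name. The libraries were treated as unpaired, and whether replicate numbers pair them could not be decided.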

Additional observations from a re-analysis of the deposited data

How the results depend on the processing

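Higher genes, lower genes, genes back within 2-fold and newly changed genes, in this order, numbered 5664, 2893, 3536 and 1367 with all 15 libraries. They moved by over 1.5 times on 13 libraries (94, 15, 42 and 5), on 11 libraries in edgeR and in limma-voom (0 of each), on 11 libraries in DESeq2 (1982, 895, 1100 and 318), in a fit of the 9 libraries of 12 h, 4 h and control (3753, 1593, 2249 and 750), and in DESeq2 on 15 libraries (9193, 5795, 6045 and 2774). Only the 6 libraries of 12 h and 4 h gave 1873 higher and 1189 lower genes, and no class, since they hold no control. With the replicate number as a block the counts were 3672, 1864, 2323 and 827. The correlation of same-numbered deviations between 12 h and 4 h was 0.00445, -0.0313 and 0.156 for replicates 1, 2 and 3. Replicates 1 and 2 each involve an intermediate library, which lies between the other 2 of its group. In 4 of 18 matches to another group the own number was best. These values cannot decide whether the replicate numbers pair the samples. Newly changed genes were 2362 by limma on log2(FPKM + 1), and with near control taken as 1.5-fold the classes held 2277 and 888. Leaving out each library of 12 h, 4 h or control in turn gave 1319 to 5590 higher, 597 to 2876 lower, 889 to 3318 back within 2-fold and 316 to 1462 newly changed genes. Higher genes made up 80.1% of calls without 12 h replicate 1 and 86.2% on 13 libraries, against 66.2% with all. The share went the other way without 4 h replicate 2 (60.0%) and without 4 h replicate 1 (61.1%). It was also lower on the 6 libraries (61.2%) and in DESeq2 on 15 libraries (61.3%). DESeq2 size factors, no filter, a CPM of at least 1 in 3 libraries, limma-voom on 15 libraries, limma on log2(FPKM + 0.1) and log2(FPKM + 1) without a filter left the 4 counts within 1.5 times, as 4-fold for near control left the classes. Each of the 4 named IDs kept its direction in all settings, passed with any 1 of the 9 libraries of 12 h, 4 h and control left out (highest edgeR adjusted p 0.0242), and missed the threshold on 11 libraries in edgeR and limma-voom; all but MS.gene54620 also missed it on 13. The cause of these differences was not tested. With 3 libraries a group, of which 1 lies between the other 2 at both times, precision is limited, and the difference in detected genes cannot pass a threshold of 0.05.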
